A study of Rattus norvegicus with 11 samples.

Results

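The baseline transcriptome described here is that of untreated rat dorsal root ganglion (DRG) neurons, purified by immunopanning and kept in culture. Its members were the 3 untreated libraries of a series of 11, chosen by their label, and all 22076 genes with values were ranked in them by mean FPKM (fragments per kilobase of transcript, scaled to the total of mapped fragments, computed by the authors). The other 8 libraries of the series, 4 from neurons given Schwann cell conditioned medium and 4 from neurons given prostaglandin E2 (PGE2) at 1 µM, enter no comparison here. Every culture was wild type and came from Sprague-Dawley rat embryos at embryonic day 15. Ganglia of 10 to 18 embryos were pooled per experiment, and 1 pregnant rat counted as 1 biological replicate. RNA was taken on day 14 in vitro and sequenced as poly-A enriched, stranded libraries. The untreated cultures carried no added agent, and a vehicle is not given in the sources used here. They model neurons that matured in a dish without their glia, target tissue or central connections, and the pooled embryos leave no information on single animals.

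DRG neurons carry touch, position, temperature, itch and pain signals from the body to the spinal cord. They divide into large neurofilament-rich mechanoreceptors and proprioceptors, peptidergic nociceptors that depend on nerve growth factor, non-peptidergic nociceptors that depend on Ret signalling, itch neurons, cold neurons and fine touch neurons. Each class is recognised by its receptors, channels, peptides and transcription factors. In rodents many class markers appear late in embryonic life or after birth. FPKM are scaled to transcript length, so levels of different genes can be set side by side. A gene is called present at 1 FPKM or more in all 3 libraries, absent at under 1 FPKM in all 3, and split otherwise. Values are given for cultures 1, 2 and 3 (untreated replicates 1 to 3) in that order throughout, and errors are SD over the 3 cultures (n = 3).

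The label was first checked against its markers. Tubb3, which encodes a neuronal tubulin, had 1319, 1001 and 828 FPKM. Prph, which encodes the intermediate filament peripherin of peripheral neurons, had 3279.7, 3045 and 2179.5 FPKM and was the most abundant nuclear-encoded gene with a symbol. Isl1, a transcription factor of sensory neurons, had 19.7, 17.9 and 19.2 FPKM. All of these markers were present in every culture, and so were 26 of 26 genes on the pan-neuronal list, where 51.7% of all genes were present.

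Across all genes, 11415 of 22076 were present (51.7%), 9218 were absent (41.8%) and 1443 were split (6.54%). Exactly 0 FPKM was listed in all 3 cultures for 4330 genes. Among genes just inside the threshold, Cldn4, a tight junction gene, had 2.52, 2.39 and 1 FPKM, Cldn23 had 1.03, 1.76 and 1 FPKM and Cnksr2 had 2.23, 1.35 and 1 FPKM. Just outside it, Cdc42ep1 had 0.2, 0.39 and 0.99 FPKM and Ceacam16 had 0.99, 0.31 and 0.33 FPKM. In cultures 1, 2 and 3, 11933, 12327 and 12192 genes reached 1 FPKM, and 16320, 16892 and 16301 were above 0. Read totals are not given, but low FPKM rise in units of 1 fragment. The most common ratio of low values was 1.27 for culture 2 over culture 1 and 1.31 for culture 3 over culture 1. If that ratio reflects the size of the unit, culture 1 was the deepest, which was not tested. Of gene families with general roles, picked by name, 72 of 72 ribosomal protein genes were present. So were 213 of 224 genes of the proteasome, respiratory chain, initiation factors, RNA polymerase II, chaperonin and snRNPs. Of these 224, 2 (Cox8c and Psma8) were listed at 0, but a pick by name does not show that every member is ubiquitous. Ncam1, a neural adhesion gene that neurons are known to use, was listed at 0, 0 and 0.71 FPKM, so an exact 0 in this table is given below as listed at 0 and not as absence of the transcript.

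The promoters of these classes differed in a feature that the ranking did not use, the number of CpG sites, which vertebrate housekeeping and widely expressed promoters are known to keep. Windows of 300 bases (250 before and 50 after each annotated start) came from RefSeq on GRCr8, a later build than the authors' own, and were matched by gene name among protein-coding genes. Sequences of 4 promoters are shown, from the abundant neuronal genes Prph and Tubb3, both present, and from the sensory channel genes Trpv1 and Trpm8, both absent. Letters run 5′ to 3′ on the gene's strand, and capitals mark CpG sites and the letters TATAAA, the core of the TATA box.
Prph, chr7:132097039-132097338, plus strand: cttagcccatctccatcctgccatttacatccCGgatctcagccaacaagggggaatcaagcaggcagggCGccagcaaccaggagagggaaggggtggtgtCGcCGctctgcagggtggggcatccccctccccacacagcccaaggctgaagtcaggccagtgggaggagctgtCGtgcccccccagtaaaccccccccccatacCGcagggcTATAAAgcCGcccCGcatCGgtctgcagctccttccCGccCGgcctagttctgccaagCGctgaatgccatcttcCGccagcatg
Tubb3, chr19:68365437-68365736, plus strand: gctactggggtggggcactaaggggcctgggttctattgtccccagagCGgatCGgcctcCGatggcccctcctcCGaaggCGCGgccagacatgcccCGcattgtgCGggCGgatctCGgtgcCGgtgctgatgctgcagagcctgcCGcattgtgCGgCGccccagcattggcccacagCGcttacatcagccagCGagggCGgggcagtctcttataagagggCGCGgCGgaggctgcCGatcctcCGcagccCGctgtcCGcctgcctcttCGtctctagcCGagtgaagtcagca
Trpv1, chr10:58349686-58349985, plus strand: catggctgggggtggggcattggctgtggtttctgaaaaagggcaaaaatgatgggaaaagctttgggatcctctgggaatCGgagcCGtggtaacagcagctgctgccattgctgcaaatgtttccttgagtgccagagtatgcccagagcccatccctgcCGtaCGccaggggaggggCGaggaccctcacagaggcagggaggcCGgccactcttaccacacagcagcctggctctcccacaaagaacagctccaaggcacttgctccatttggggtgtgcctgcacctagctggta
Trpm8, chr9:96351433-96351732, plus strand: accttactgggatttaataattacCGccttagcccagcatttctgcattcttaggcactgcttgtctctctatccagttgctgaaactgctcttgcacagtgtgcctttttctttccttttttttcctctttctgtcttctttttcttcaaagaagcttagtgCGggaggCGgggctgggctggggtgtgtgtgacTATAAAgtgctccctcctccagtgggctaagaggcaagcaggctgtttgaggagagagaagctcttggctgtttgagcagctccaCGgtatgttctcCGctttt

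These windows held 13 CpG sites in Prph and 26 in Tubb3, against 6 in Trpv1 and 5 in Trpm8. TATAAA began 35 bases before the start in Prph and 54 bases before it in Trpm8, and was not in the other windows. The median window held 22 CpG sites in present genes (quartiles 15 and 30, 8542 of 10236 protein-coding genes with a promoter), 15 in split genes (943 of 1168) and 5 in absent genes (quartiles 2 and 10, 5561 of 6928). Over all protein-coding genes with a promoter the median was 12. Genes listed at 0 in every culture had a median of 2 sites. TATAAA on the sense strand stood in 3.73% of present, 7.32% of split and 14.1% of absent windows, and in 8.65% of all. With both strands counted the shares were 5.79%, 10.4%, 20.5% and 13.2%. Where a gene had several annotated starts, its windows were averaged. Within the present genes, windows with TATAAA made up 3.79% at means of 1 to under 5 FPKM and 7.25% at means of 100 FPKM or more, while the median CpG number was 20 and 23. Genes are not independent replicates, and the classes were not tested against each other.

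**Figure D1:**
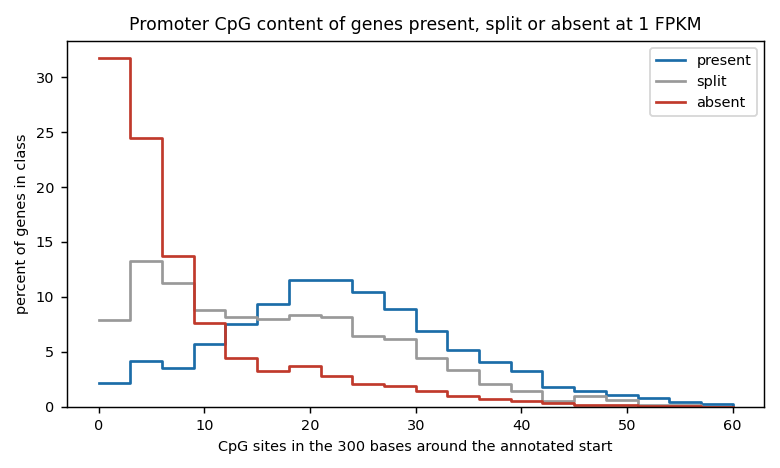
Distribution of CpG sites in 300-base promoter windows (x axis, sites per window in bins of 3) as percent of genes in each class (y axis) for genes present, split or absent at 1 FPKM in the untreated cultures. Present genes centre on a median of 22 sites and absent genes on a median of 5.

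The most abundant transcripts included mitochondrial, cytoskeletal and neuron-specific ones. The 13 mitochondrially encoded genes made up 5.54%, 3.37% and 5.24% of summed FPKM. Mt-co1, a cytochrome oxidase subunit, led them with 4229, 3653 and 4252 FPKM, or 4045 ± 339 FPKM. Of the 20 nuclear genes with the highest means, 6 carried only a clone or locus identifier, and 14 had a symbol. The IDs AABR07063424.1 and AABR07063425.3 had the highest nuclear means, with a ratio between them of 1.12 in every culture, and whether they share reads was not tested.

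Neuronal cytoskeleton genes filled several of these places. Prph averaged 2835 ± 579 FPKM. Stmn2, a microtubule regulator of growing axons, had 2440.1, 2439 and 1836 FPKM, and Tuba1a, a neuronal alpha-tubulin, 1593, 1085 and 833 FPKM. The neurofilament subunit gene Nefm had 1645, 1164 and 674 FPKM, Nefl had 1420.4, 1011 and 476 FPKM, and the heavy subunit gene Nefh had 52.2, 24.6 and 7.81 FPKM. Culture 1 was the highest and culture 3 the lowest for each of the 3 neurofilament genes, and Nefh differed most, by 6.68 times between those cultures. Gap43, a growth cone protein, had 627, 487 and 388 FPKM and Basp1, another growth cone protein, 1091, 1081 and 915 FPKM.

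Signalling and housekeeping genes completed the list. Gng3, a neuronal G protein gamma subunit, had 1834, 1568 and 1459 FPKM, Calm2, which encodes calmodulin, 1311, 1407 and 1424 FPKM, and Gnas, which encodes the stimulatory G protein that couples several receptors to adenylyl cyclase, 1145, 1269 and 993 FPKM. Tmsb4x, an actin-binding peptide gene, had 1763, 2309 and 1166 FPKM, and Uchl1, a neuronal deubiquitinase, 1389.7, 1454 and 913 FPKM. Gpi, a glycolytic enzyme, had 825, 1175 and 1345 FPKM, Scd2, a fatty acid desaturase, 1346, 996 and 817 FPKM, and Ptma 806, 733 and 1412 FPKM. Among the 14 with a symbol, Calm2 varied least, with a coefficient of variation (CV, SD over mean) of 4.44%, and Nefm most, at 41.8%. The top 10 genes took between 7.33 and 7.70% of summed FPKM, and it took 673 to 744 genes to reach 50% of it.

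**Figure D2:**
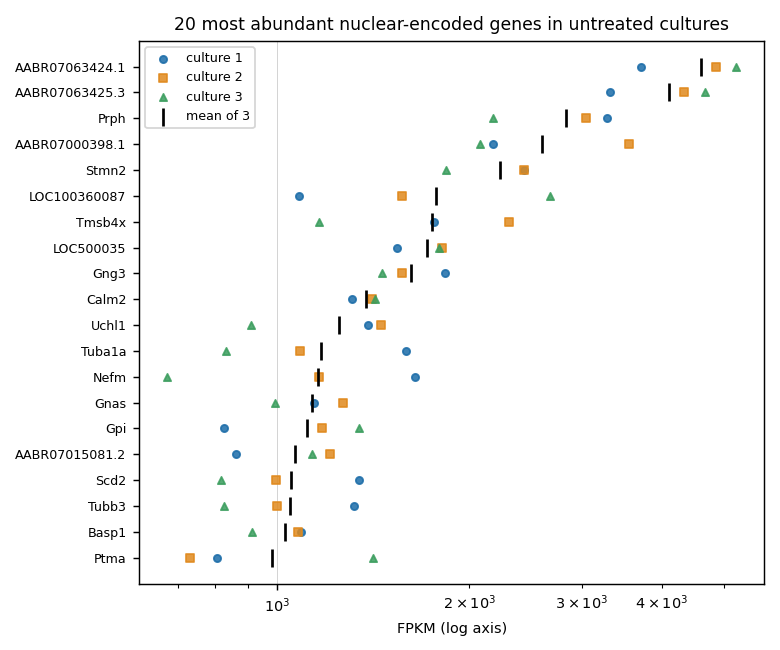
FPKM (x axis, log scale) of the 20 nuclear-encoded genes with the highest mean, 1 row per gene, with 1 point per untreated culture and a bar at the mean of 3. Prph, at 2180 to 3280 FPKM, is the highest gene with a symbol, and Nefm shows the widest distance between cultures among the named neuronal genes in the plot.

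Of 36 transcription factors of sensory neurons with a row, 24 were present (66.7%), 9 absent and 3 split. Over all genes, 51.7% were present. Pou4f1 (Brn3a), a shared factor of somatosensory neurons, had 72.1, 51.1 and 20.7 FPKM, and its relatives Pou4f2 and Pou4f3 had 7.91, 5.47 and 7.23 and 2.39, 2.52 and 2.99 FPKM. Klf7, a factor of developing sensory neurons, had 198, 132 and 79.01 FPKM, Tlx3 had 75.2, 39.5 and 21.4 FPKM and Drgx, a factor of nociceptors and their spinal targets, 20.1, 15.3 and 13.3 FPKM. Isl2 had 18.8, 20.2 and 29.5 FPKM and Sox11, of developing and regenerating neurons, 23.6, 24.1 and 23.8 FPKM. Pou4f1 and Tlx3 were highest in culture 1 and lowest in culture 3, whereas Isl1 and Sox11 stayed within a few FPKM of each other.

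Class-specific factors ranged from absent to moderate levels. Runx1, which directs the non-peptidergic and C-fibre touch classes, had 1.62, 5.31 and 1.75 FPKM, and Runx3, the factor of proprioceptors, was absent at 0.06, 0.51 and 0.36 FPKM. Etv1, needed for proprioceptor connections, had 15.8, 13.2 and 12.7 FPKM, Shox2, a factor of TrkB mechanoreceptors, 8.57, 9.18 and 7.17 FPKM, and Maf 12.4, 11.9 and 6.32 FPKM. Mafa was split at 0.84, 0.69 and 1.06 FPKM. The early proneural factors Neurog1 and Neurog2, which start sensory neurogenesis, did not pass 0.13 FPKM, while Neurod1, which acts after them, had 3.08, 2.53 and 1.71 FPKM.

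Markers of nociceptors and of other classes ranged from abundant to listed at 0. Ntrk2 (TrkB) was absent at 0.49, 0.39 and 0.52 FPKM and Ntrk3 (TrkC), the receptor of proprioceptors, was split at 0.4, 1.05 and 1.01 FPKM. In bulk RNA a low level cannot tell fewer cells of a type from less RNA per cell. Of 16 peptidergic markers with a row, 11 were present, 3 absent and 2 split, and of 22 non-peptidergic markers 6 were present (27.3%), 10 absent and 6 split, where 51.7% of all genes were present. With each library rescaled to an equal sum, as TPM, 11 of the 22 reached 1 in every culture, as did 12651 of all 22076 genes (57.3%). That sum was 1000000, while the FPKM of cultures 1, 2 and 3 summed to 384644, 410055 and 427232. So 1 TPM is a lower cut than 1 FPKM. At 0.5 FPKM 10 of the 22 were present, and 6 with median-ratio scaling. Genes under 1 TPM in all 3 cultures numbered 7923, against 9218 at 1 FPKM, so absent calls near the cut change too. Ntrk3 also reached 1 in every culture as TPM.

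Ret, the signalling receptor for GDNF family ligands, had 195, 121 and 90.3 FPKM. Of its co-receptors, Gfra3, of peptidergic neurons, had 19.8, 25.1 and 13.6 FPKM, Gfra2, of non-peptidergic and fine touch neurons, was split at 2.45, 0.83 and 0.64 FPKM, and Gfra1 had no row and is not analysed here. P2rx3, the ATP-gated channel of nociceptors, had 50.8, 58.96 and 43.4 FPKM. The Mas-related receptor gene Mrgpre had 60.02, 52.1 and 38.5 FPKM and Mrgprx4 3.69, 10.2 and 2.58 FPKM, while Mrgprd, the receptor that defines mature non-peptidergic nociceptors, was listed at 0 in every culture, as were Mrgprx2 and Mrgprb4. Lpar3, a lysophosphatidic acid receptor of the same class, was split at 4.07, 1.79 and 0.1 FPKM. Cd55, a complement regulator that marks this class, had 35.6, 31.8 and 28.4 FPKM.

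Of 11 cold and fine touch markers, 4 were present, 5 absent and 2 split, where 51.7% of all genes were present, but 7 were present as TPM, where 57.3% of all genes were, and at 0.5 FPKM, and 2 at 2 FPKM. Of 10 itch markers, 2 were present, 7 absent and 1 split. The present itch markers were Nts, which encodes neurotensin, at 130, 70.1 and 32.8 FPKM, and Jak1, a broadly used kinase, at 37.2, 27.9 and 24.04 FPKM. Nppb and Cysltr2 were listed at 0, Sst did not pass 0.14 FPKM, and Il31ra and Osmr did not pass 0.03 FPKM. Trpm8, the cold receptor, was absent at 0.47, 0.24 and 0.06 FPKM. Th, which marks C-fibre touch neurons in the adult, was split at 1.75, 0.94 and 3.5 FPKM, Slc17a8 (VGLUT3) had 3.07, 6.23 and 1.54 FPKM and Tafa4 was absent at 0, 0.25 and 0.39 FPKM.

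Mechanoreceptor and proprioceptor markers were present for 17 of 26 genes with a row, where 51.7% of all genes were present. Pvalb, the calcium buffer of proprioceptors, had 187, 234 and 163 FPKM, a mean of 195 ± 36.2 FPKM, although Runx3 and Spp1, other proprioceptor markers, were absent and Ntrk3 was split. Spp1 had 0.29, 0.47 and 0.19 FPKM. Whrn, another proprioceptor marker, had 4.21, 5.23 and 6.3 FPKM, and Calb1, a calcium buffer of mechanoreceptors, 8.31, 7.36 and 5.74 FPKM. Within this class, levels therefore lay between 0 and 234 FPKM, and its markers were not high together.

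**Figure D3:**
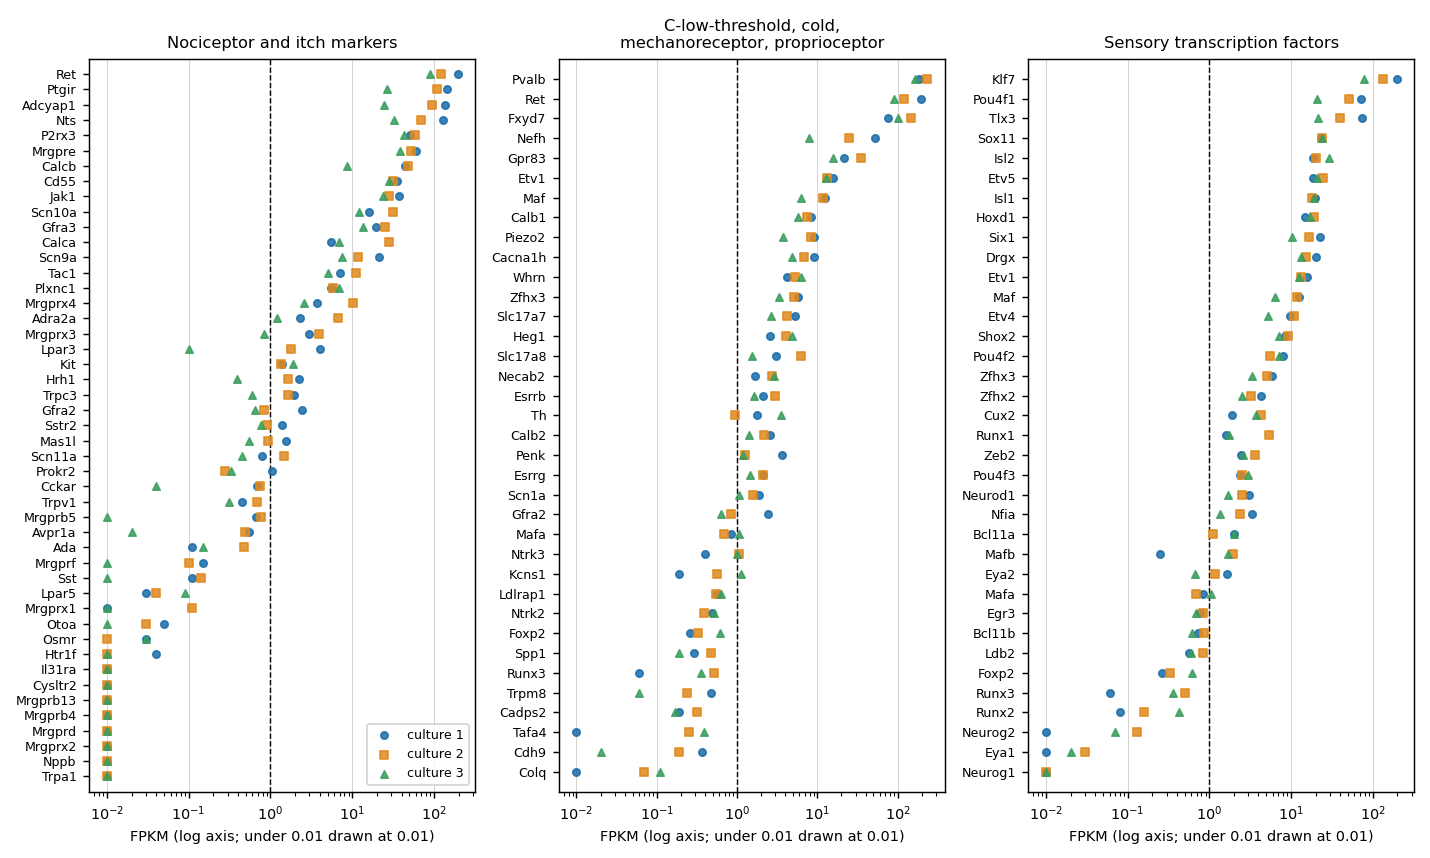
FPKM (x axis, log scale, values under 0.01 drawn at 0.01) of subtype markers and sensory transcription factors with 1 row per gene and 1 point per untreated culture, and a dashed line at 1 FPKM. Ret and Pvalb lie far to the right of the line in every culture, and Mrgprd, Trpm8 and Runx3 to its left.

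Voltage-gated sodium channels generate the action potential. Of 19 genes of this list, 14 were present, 3 absent and 2 split, where 51.7% of all genes were present. Scn10a (Nav1.8), a tetrodotoxin-resistant channel of nociceptors, had 16.2, 31.8 and 12.1 FPKM, and Scn9a (Nav1.7), which amplifies small depolarisations, 21.5, 11.6 and 7.53 FPKM. Scn10a made up 33.2, 59.3 and 47.1% of the summed FPKM of 9 pore-forming subunits, and Scn9a 44.0, 21.6 and 29.4%, so Scn9a led in culture 1 and Scn10a in the others. Scn11a (Nav1.9), which sets the resting range of nociceptors, was split at 0.79, 1.46 and 0.45 FPKM, but reached 1 in every culture as TPM. Scn8a, Scn3a, Scn1a and Scn2a were present, with means between 1.36 and 3.02 FPKM, while Scn4a, of muscle, did not pass 0.07 FPKM. Scn2b provided 67.7, 64.3 and 63.0% of beta subunit FPKM, with 98.1, 75.7 and 61.1 FPKM. Fgf13, which binds and tunes sodium channels, had 32.5, 33.02 and 28.6 FPKM, and Scn7a, a sodium-sensing relative, 35.3, 20.98 and 13.9 FPKM.

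Calcium channels open transmitter release and shape excitability. Of 25 genes of this list, 14 were present, a share near the 51.7% of all genes. The pore subunit Cacna1b (N-type) had 12.01, 11.5 and 8.52 FPKM, Cacna1a (P/Q-type) 12.3, 9.5 and 6.83 FPKM and Cacna1h (T-type) 9.22, 6.76 and 4.81 FPKM. They were the 3 highest pore subunit genes in each culture, and over the mean of the cultures Cacna1b made up 35.1%, Cacna1a 31.4% and Cacna1h 22.8% of the summed FPKM of 9. The L-type gene Cacna1c was absent at 0.94, 0.74 and 0.74 FPKM and Cacna1d was split at 1.61, 1.7 and 0.68 FPKM. As TPM, 18 of the 25 genes were present, Cacna1c and Cacna1d among them, where 57.3% of all genes were. Cacnb3 supplied 79.0, 80.9 and 82.2% of beta subunit FPKM, with 87.95, 91.3 and 74.9 FPKM. Of the alpha2delta subunits, Cacna2d1, the binding site of gabapentin, had 8.43, 5 and 4.53 FPKM, close to Cacna2d3 at 6.71, 6.31 and 4.73 FPKM. Cacng7, a partner of AMPA receptors, had the highest level of the list, at 176, 164 and 222 FPKM.

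Potassium channels restore and hold the resting potential. Of 45 voltage- and calcium-gated members with a row, 19 were present, 15 absent and 11 split, where 51.7% of all genes were present. As TPM, 30 of the 45 were present, where 57.3% of all genes were. With median-ratio scaling 19 were present, and at a threshold of 0.5 FPKM 28 were. The place of the list beside the share of all genes therefore depends on the cut, which is lower at 1 TPM. Kcna6 had 49.5, 36.7 and 22.2 FPKM and Kcna1 55.02, 29.3 and 18.96 FPKM, and these members of the Shaker-related family, which restrains repetitive firing, made up 42.9% and 40.8% of its summed mean FPKM. Kcnq5, an M-current subunit, had 31.3, 19.4 and 7.14 FPKM. Kcnd1, an A-type channel, had 42.3, 29.4 and 20.01 FPKM, Kcnc4, a fast high-threshold channel, 35.01, 25.1 and 12.1 FPKM and Kcnh2 25.04, 21.7 and 10.7 FPKM. Kcnma1, the large-conductance calcium-gated channel, had 4.41, 3.72 and 3.25 FPKM. Each of Kcna6, Kcna1, Kcnd1, Kcnc4, Kcnq5 and Kcnh2 was highest in culture 1 and lowest in culture 3. Kcnab1, a cytoplasmic beta subunit, had 89.3, 67.7 and 29.9 FPKM.

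Background leak and rectifier channels were present for 11 of 29 genes, where 51.7% of all genes were present. Kcnj3, a G protein-gated rectifier, had 40.9, 25.7 and 10.4 FPKM, and Kcnj11, an ATP-sensitive channel, 9.9, 13.2 and 17.95 FPKM. Kcnk12 had 11.97, 12.6 and 11.1 FPKM, Kcnk10 (TREK-2) 12.8, 10.4 and 6.86 FPKM and Kcnk4 (TRAAK) 6.4, 9.34 and 7.63 FPKM. Kcnk2 (TREK-1) did not pass 0.02 FPKM and Kcnk18 (TRESK), a leak channel of adult DRG neurons, did not pass 0.04 FPKM. Among pacemaker channel genes, Hcn2 had 22.9, 29.6 and 33.9 FPKM, Hcn3 25.7, 19.6 and 18.5 FPKM and Hcn4 8.12, 5.83 and 6.54 FPKM. Hcn2 was highest in culture 3, and Hcn3 in culture 1.

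Sensory transduction channels included both abundant and undetected genes. Trpv1, the heat and capsaicin receptor, was absent at 0.45, 0.69 and 0.31 FPKM, though split at a threshold of 0.5 FPKM. Trpa1, the receptor of irritants, was listed at 0 in every culture. By contrast Trpv2 had 40.95, 28.7 and 15.03 FPKM, Trpm3, a heat sensor, 10.1, 7.66 and 2.31 FPKM, and Trpc1 6.54, 5.51 and 7.83 FPKM. Of 25 TRP genes, 8 were present, 15 absent and 2 split, below the 51.7% of all genes. Piezo2, the channel of light touch and proprioception, had 9, 8.28 and 3.77 FPKM, and Piezo1 was absent at 0.57, 0.71 and 0.31 FPKM. P2rx3 held 84.0, 86.1 and 87.5% of the FPKM of ATP-gated channels, while P2rx2, with which it forms heteromers, was absent at 0.15, 0.14 and 0.25 FPKM. The acid-sensing genes Asic1, Asic2, Asic3 and Asic4 were present, with means between 1.73 and 5.27 FPKM.

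The gradient for chloride sets whether GABA depolarises or hyperpolarises a neuron. Slc12a2 (NKCC1), which loads chloride, had 8.28, 7.12 and 10.4 FPKM, and Slc12a5 (KCC2), which extrudes it, was absent at 0.27, 0.55 and 0.67 FPKM. Ano1, a calcium-gated chloride channel of heat nociceptors, did not pass 0.11 FPKM, and Ano3 had 12.6, 7.18 and 3.53 FPKM. Lrrc8d and Lrrc8b, subunits of the volume-regulated anion channel, had 55.5, 62.9 and 54.4 and 45.5, 52.6 and 44.1 FPKM.

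**Figure D4:**
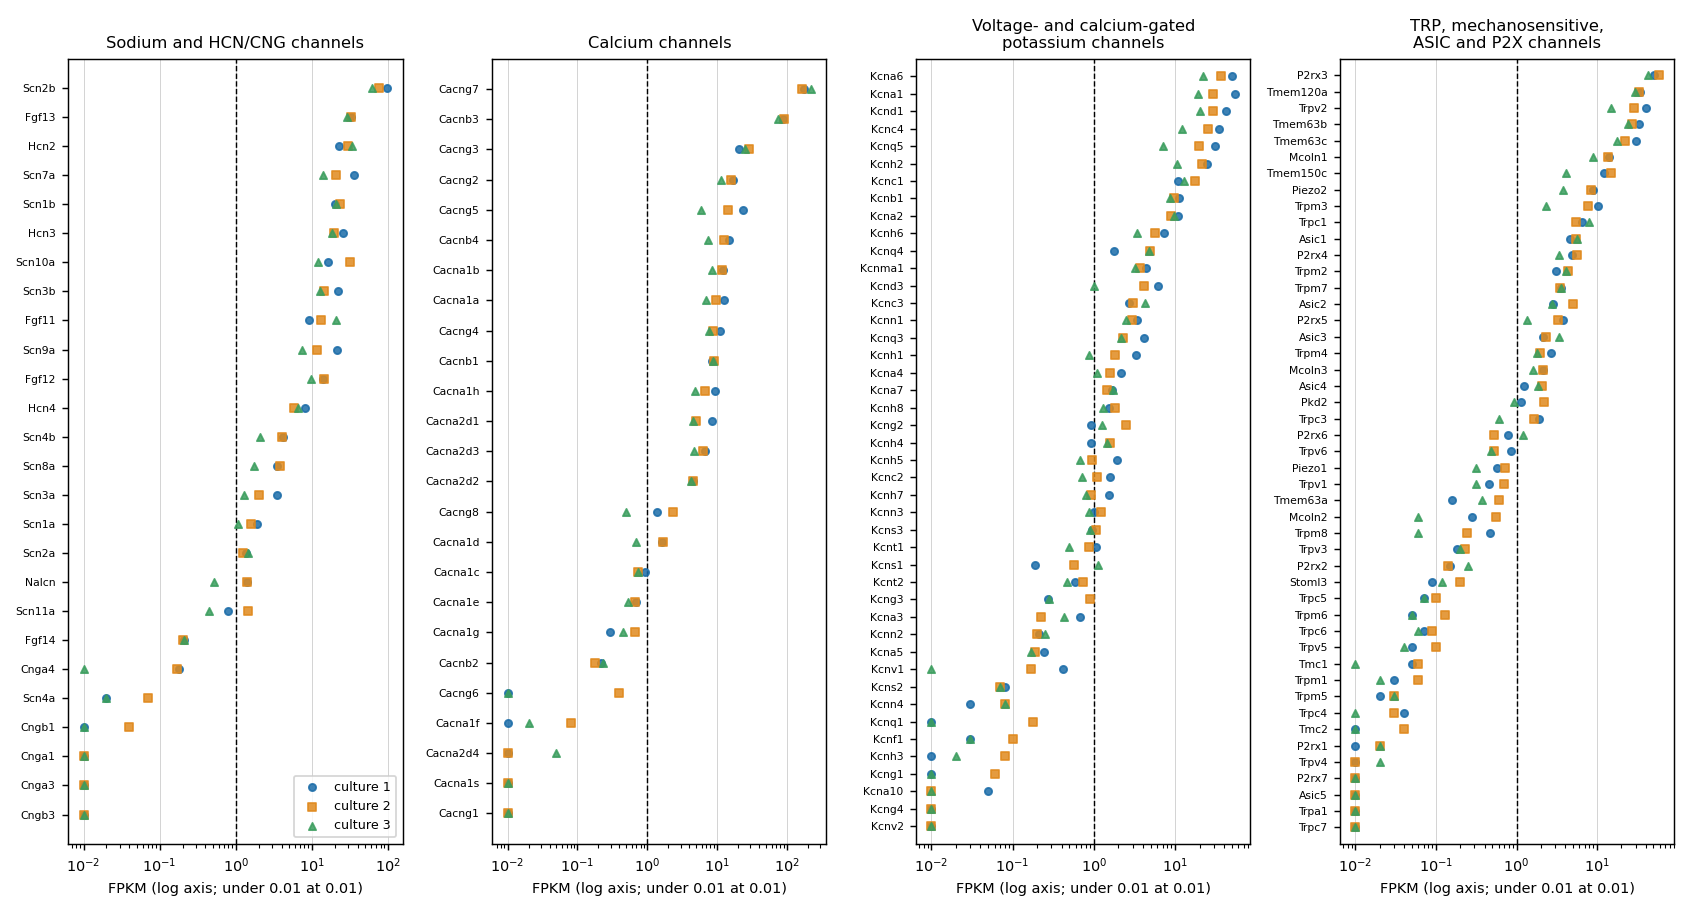
FPKM (x axis, log scale, values under 0.01 drawn at 0.01) of ion channel genes, 1 row per gene and 1 point per untreated culture, with a dashed line at 1 FPKM. Scn10a, Cacnb3, Kcna6 and P2rx3 lie right of the line in all cultures, and Trpv1 and Trpa1 left of it.

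Receptors for transmitters were unevenly present, and each count here stands beside the 51.7% of all genes that were present. For glutamate, 8 of 25 receptor genes were present, led by the kainate subunit Grik5 at 46.05, 46.1 and 42.9 FPKM, which was 78.1, 82.1 and 86.1% of kainate subunit FPKM. Grik1, the kainate subunit typical of C-fibre neurons in rodents, was absent at 0.39, 0.22 and 0.04 FPKM. Gria2, the AMPA subunit that limits calcium entry, had 5.02, 5.91 and 5.52 FPKM. For GABA and glycine, 12 of 26 were present and none split. Gabra2 had 34.8, 30.7 and 21.9 FPKM and made up 89.96, 90.7 and 84.8% of alpha subunit FPKM, with the metabotropic subunits Gabbr1 and Gabbr2 at 19.8, 27.1 and 15.98 and 31.9, 21.2 and 13.2 FPKM. Among 34 acetylcholine and serotonin receptors, 10 were present, with Chrnb2 at 91.2, 78.7 and 64.4 FPKM, Chrna7 at 17.4, 19.8 and 10.2 FPKM, Chrm3 at 28.2, 22.2 and 7.42 FPKM and Htr3a at 3.26, 3.53 and 3.71 FPKM.

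G protein-coupled receptors of pain modulation were mostly low. Oprm1, the mu opioid receptor, was split at 1.43, 1.31 and 0.88 FPKM, Oprd1 was absent at 0.71, 0.67 and 0.37 FPKM and Oprk1 did not pass 0.03 FPKM. Cnr1, the cannabinoid receptor of neurons, had 5.59, 7.54 and 2.32 FPKM, and Adora1, an inhibitory adenosine receptor, 15.5, 12.8 and 9.93 FPKM. Bdkrb2, the bradykinin receptor, had 9.47, 15.5 and 4.75 FPKM, F2r, a thrombin receptor, 51.8, 37.7 and 29.98 FPKM, and P2ry2, a receptor for ATP and UTP, 25.96, 24.6 and 3.54 FPKM. P2ry2 was lowest in culture 3. Of 46 opioid, cannabinoid and peptide receptors, 8 were present, 25 absent and 13 split, and as TPM 15 of the 46 were present, where 57.3% of all genes were. Of 29 monoamine, purine and histamine receptors, 8 were present. At 1 FPKM, 51.7% of all genes were present.

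The receptors for PGE2, the agent of the series, were all split at the threshold of 1 FPKM. Ptger2 (EP2) had 4.59, 10.3 and 0.59 FPKM, Ptger1 (EP1) 5.21, 2.39 and 0.86 FPKM, Ptger4 (EP4) 0.65, 1.51 and 0.93 FPKM and Ptger3 (EP3) 0.84, 1.2 and 0.91 FPKM. Each was under 1 FPKM in at least 1 culture, and culture 3 was under 1 FPKM for each of them. The prostacyclin receptor Ptgir, which like EP2 and EP4 couples to the stimulatory G protein, had 144, 107 and 26.7 FPKM. Ptgir took 92.5, 85.6 and 84.2% of the summed FPKM of 8 prostanoid receptor genes and was also lowest in culture 3. As TPM, 5 of these 8 genes reached 1 in every culture, a share near the 57.3% of all genes. These were Ptgir, Ptger1, Ptger2, Ptger3 and Ptger4, so the call of split for the PGE2 receptors depends on the cut, which is lower at 1 TPM. With median-ratio scaling 1 of the 8 was present, the same number as at 1 FPKM. The same 5 were present at a threshold of 0.5 FPKM. Without culture 3, 3 of the 8 genes were at 1 FPKM or more in both others.

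Receptors for cytokines and growth factors were present for 23 of 45 genes, a share like the 51.7% of all genes. Cntfr, the binding subunit for ciliary neurotrophic factor, had 59.6, 62.9 and 88.8 FPKM, and its signalling partners Lifr and Il6st had 54.7, 30.9 and 37.98 and 26.4, 34.1 and 37.99 FPKM. Ifngr1, for interferon gamma, had 58.2, 47.6 and 41.8 FPKM and Tnfrsf1a, for tumour necrosis factor, 51.5, 55.3 and 34.03 FPKM. Ngfr, the low-affinity neurotrophin receptor p75, had 107, 82.7 and 29.05 FPKM. The toll-like receptor genes Tlr3 and Tlr7 were listed at 0, as was Pdgfrb.

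Peptide and transmitter genes described what the neurons could release. Of 39 neuropeptide and neurotrophic factor genes with a row, 14 were present, 17 absent and 8 split, where 51.7% of all genes were present. Adcyap1, which encodes PACAP, had 136, 94.2 and 24.6 FPKM, Calcb (beta-CGRP) 43.6, 48.1 and 8.58 FPKM, Calca (alpha-CGRP) 5.54, 28.4 and 6.79 FPKM and Tac1, which encodes substance P, 6.99, 11.1 and 5.05 FPKM. Calca was highest in culture 2, Calcb was lowest in culture 3, and galanin, from Gal, was highest in culture 1 at 86.6, 10.8 and 23.03 FPKM, with a CV of 101%. Bdnf, a neurotrophin made by nociceptors, had 9.18, 10.6 and 4.94 FPKM. Npy and Vip, peptides that rise after axotomy in rat, were at 1.21, 0 and 0.18 FPKM and listed at 0.

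The secretory machinery was abundant, with 13 of 14 granin and processing genes present, where 51.7% of all genes were. Vgf, a neurotrophin-responsive granin family gene, had 692, 456 and 233 FPKM, Scg2 390.1, 342 and 141 FPKM, Scg5 269, 268 and 238 FPKM and Cpe, which trims peptide ends, 292, 245 and 219 FPKM. Slc17a6 (VGLUT2), the vesicular glutamate transporter of DRG neurons, had 302, 228 and 81.6 FPKM and was 97.3, 95.6 and 95.1% of the family. Several genes of other transmitters were absent, among them Slc32a1 (GABA and glycine), Slc6a4 (serotonin uptake), Chat (acetylcholine synthesis) and Dbh (noradrenaline synthesis), none of which passed 0.22 FPKM. Gad1, which makes GABA, had 10.5, 6.62 and 6.41 FPKM nonetheless, and the choline transporter Slc5a7 37.9, 18.5 and 6.54 FPKM.

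Stress, hypoxia and injury genes were more widely present than the 51.7% of all genes at 1 FPKM. All 29 members of the list for the integrated stress and unfolded protein responses were present. Atf4, its central factor, had 238, 458 and 579 FPKM, Atf5 486, 535 and 474 FPKM, the hormone gene Fgf21 572, 499.9 and 485 FPKM and the chaperone gene Hspa5 157, 461 and 846 FPKM. Of the hypoxia and glycolysis list, 31 of 32 were present, with Ddit4 at 112, 198 and 164 FPKM and Adm at 12.9, 56.5 and 30.9 FPKM. Injury and regeneration genes were present for 23 of 28, including Atf3, a factor induced by axotomy, at 11.6, 47.8 and 56.5 FPKM, Jun at 71.7, 102 and 127 FPKM and Gadd45a at 123, 212 and 228 FPKM. Immediate early genes were present for 17 of 28 (60.7%), nearer the share of all genes, and split for 9. Among them, Fos had 1.74, 20.8 and 21.5 FPKM and Egr1 0.84, 29.6 and 2.83 FPKM.

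Markers of other cells were looked for by list, where 41.8% of all genes were absent. Of the Schwann and satellite glia list, 18 of 31 were absent, 9 present and 4 split, and its summed FPKM was 901, 693 and 517, most of it from Gap43, Ngfr, Pmp22 and Scn7a. Gap43 and Ngfr are also neuronal genes. Fabp7 and Gfap, of the same list, were listed at 0 and Sox10 did not pass 0.07 FPKM, while 6 of the 31 were present at a threshold of 5 FPKM. Apoe, of satellite glia, was split at 0.37, 1 and 9.2 FPKM. For fibroblasts and meninges 18 of 22 were absent, with Col1a1 and Col3a1 at up to 0.08 FPKM, and the summed level of 858, 858 and 359 FPKM came mostly from Thy1, also a neuronal surface gene, at 848, 839 and 343 FPKM. For endothelium and mural cells 16 of 21 were absent, with summed levels of 32.2, 40.95 and 31.2 FPKM, of which Ramp2 was the largest at 25.6, 32.7 and 27.4 FPKM. For macrophages and immune cells 19 of 21 were absent, Ptprc (CD45), C1qb, Tyrobp and Adgre1 were listed at 0, and the summed 4.27, 20.1 and 47.0 FPKM came mostly from Cd68, a lysosomal gene, at 3.69, 18.3 and 45.1 FPKM.

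Other neurons were also looked for. Of 16 sympathetic and motor neuron markers, 12 were absent, 3 present and 1 split, with summed FPKM of 72.5, 57.9 and 55.2. Hand1, Hand2 and Dbh of sympathetic neurons and Mnx1 and Chat of motor neurons did not pass 0.3 FPKM, while Phox2a, also an autonomic factor, had 12.2, 15.9 and 13.6 FPKM. Of 18 markers of spinal cord interneurons and central glia, 14 were absent, 3 present and 1 split, where 41.8% of all genes were absent. Their summed FPKM was 20.4, 18.45 and 11.95. Among them, the spinal cord factors Pax2, Lbx1, Lmx1b and Lhx1 were listed at 0. Of muscle, cartilage and skin markers, 12 of 15 were absent, where 41.8% of all genes were. Acta1 was the one present, at 5.65, 6.2 and 6.84 FPKM. Proliferation genes were present for 8 of 19, where 51.7% of all genes were, but for 13 as TPM, where 57.3% of all genes were, and at 0.5 FPKM, for 12 without culture 1 and for 3 at 2 FPKM. Mki67 and Top2a, which mark dividing cells, were absent at 0.49, 0.49 and 0.25 and 0.26, 0.28 and 0.27 FPKM, whereas Pcna, which also serves DNA repair, had 17.9, 36.9 and 42.8 FPKM.

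The spread between the 3 cultures was uneven over the genome. Among the 12274 genes whose mean reached 1 FPKM the median CV was 22.9% (quartiles 13.6 and 37.0%), and it was 30.7% at means from 1 to 5 FPKM and 20.5% at means of 100 FPKM or more. Rank correlations across genes were 0.976 for cultures 1 and 2, 0.971 for cultures 2 and 3 and 0.960 for cultures 1 and 3. On the log2(FPKM + 1) scale, 4.28% of these genes differed by 1 or more between cultures 1 and 2, 6.87% between cultures 2 and 3, and 16.9% between cultures 1 and 3. Genes are not replicates, so these are descriptions of the 3 libraries.

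Among genes with a symbol and a mean that reached 10 FPKM, the 5 widest spreads were in Egr1, Hspb1, Gadd45b, Zfp36 and Nhlh1. Egr1, an immediate early factor given above, had a CV of 145% and was highest in culture 2. Hspb1, a small heat shock protein, was at 236, 23.8 and 12.8 FPKM (CV 138%), highest in culture 1. Gadd45b, a stress gene, was at 0.99, 11.9 and 47.1 FPKM (CV 121%), Zfp36, which degrades cytokine mRNA, at 1.95, 7.99 and 29.8 FPKM (CV 111%) and Nhlh1, a factor of newborn neurons, at 5.27, 13.1 and 54.5 FPKM (CV 109%), each highest in culture 3. Narrow spreads were seen in Brd9, a chromatin remodeller subunit, at a mean of 22.1 FPKM (CV 0.0692%), Psmc2, a proteasome subunit, at 106 FPKM (CV 0.264%), and Prnp, the prion protein gene, at 145 FPKM (CV 0.467%).

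Whole lists leaned toward one culture or another. On the pan-neuronal list, 17 of 26 genes were highest in culture 1 and lowest in culture 3, which held for 23.2% of all 12274 genes, and 20 of 26 were lowest in culture 3, against 37.5% of all. The first of these orders, highest in culture 1 and lowest in culture 3, also held for 17 of 27 voltage- and calcium-gated potassium channels, 10 of 16 calcium channel genes, 7 of 15 sodium channel genes and 14 of 22 genes of the sodium pump and membrane scaffold. The opposite order, highest in culture 3 and lowest in culture 1, was found for 34.4% of all genes, for 18 of 29 stress genes and for 9 of 12 proliferation genes whose mean reached 1 FPKM. Of 25 immediate early genes, 21 were lowest in culture 1, as were 48.3% of all genes. The median deviation of culture 3 from the mean of 3 cultures was −0.35 on the log2(FPKM + 1) scale for the pan-neuronal list, −0.56 for peptidergic markers and −0.51 for neuropeptides, against 0.034 for all genes. It was as low for lists of other cells, at −0.35 for Schwann and satellite glia (12 genes, Gap43 and Ngfr among them) and −0.33 for spinal cord interneurons and central glia (4 genes). Culture 1 deviated by −0.52 for stress genes and −0.64 for immediate early genes, against −0.081 for all. The signs of these lists were the same as TPM and with median-ratio scaling. The median of all genes moved by less than 0.1 but changed sign, in culture 3 to −0.029 as TPM and in culture 1 to 0.016 with median-ratio scaling. Culture 1 may also have been the deepest, by the ratio of low values. The part of depth, RNA of other cell types and the state of each culture in these differences was not tested.

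**Figure D5:**
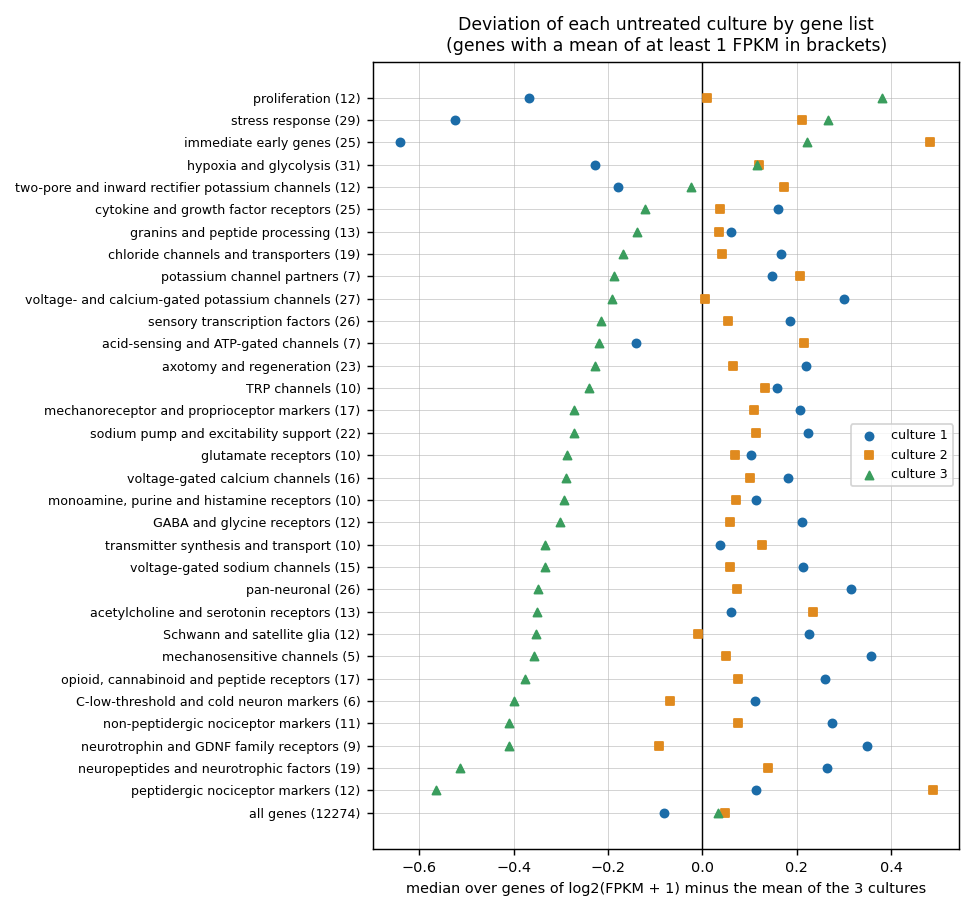
Median over genes of the deviation of each untreated culture from the mean of 3 (x axis, log2(FPKM + 1) scale) for gene lists with at least 5 genes at a mean of 1 FPKM or more (rows, number of genes in brackets). Culture 3 lies left of 0 for neuronal lists such as the pan-neuronal one, at −0.35, and culture 1 lies left of 0 for stress and immediate early genes, at −0.52 and −0.64.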

How the data were processed

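Poly-A enriched, stranded mRNA libraries of RNA with an integrity number over 8 were made from each culture, per the labels' protocols. The authors deposited FPKM per gene, and the build was Rnor 6.0, per the submitters' processing notes. No source used here names the aligner, the counter or the annotation, or says whether counting used strand: these are not given. Of 229565 lines, 207489 held no values and were left out. The names of 2 rows had become dates in a spreadsheet. RefSeq symbols or synonyms matched 18420 of 22076 names. FPKM give no read totals, so no counting intervals were computed, and depth was compared only through the most common ratio of low values between cultures.

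Means, SDs, CVs and classes at 1 FPKM were computed with Python 3.11.15, pandas 2.3.3 and numpy 2.4.6, and figures were drawn with matplotlib 3.10.9. CVs and the scaling step were tested on simulated data. No groups were compared and no test was run. The genes named were the 20 nuclear genes with the highest mean, up to 8 members of each of 41 lists by mean, members split about 1 FPKM, up to 15 genes of the largest and 10 of the smallest CV at means of at least 10 FPKM, 3 genes on each side of the threshold, and the neuronal and PGE2 receptor genes. Other list members were named for their known roles, after their values were seen. The members and lists were chosen with earlier results of these data known. Alternatives were other thresholds, TPM and median-ratio scaling, leaving out mitochondrial genes or each culture, another pseudocount and other filters. Some genes of these lists are not reported here.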

Additional observations from a re-analysis of the deposited data

How the results depend on the processing

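No paired analysis was possible because the untreated cultures were compared with no other group and no result comes from a test. At a threshold of 5 FPKM, 267 list members were present and 68 split, against 411 and 103 at 1 FPKM. Leaving out 1 culture gave 804 to 1177 split genes, against 1443, and 55 to 88 split list members: fewer libraries leave fewer ways to be split. The median SD of log2(FPKM + 1) was 0.17 with no filter on the mean and 0.29 with it. The number of present members moved by more than 1.5 times in 24 of 41 lists at 5 FPKM, 6 at 2 FPKM, 8 at 0.5 FPKM, 9 as TPM and 10 as TPM without mitochondrial genes, and in none with median-ratio scaling. It moved as far in 1 list without culture 1 (muscle, cartilage and skin, 2 present against 1) and in 2 without culture 3 (prostanoid receptors, 3 against 1, and endothelium and mural cells, 4 against 2). Of the 20 most abundant nuclear genes, 17 to 19 were shared under each alternative. In a check chosen after seeing the data, the rank correlation of cultures 1 and 3 was 0.897 over genes with a mean of 1 FPKM or more. Present at 1 FPKM is a convention, and low levels rest on few fragments.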
